A study of Mus musculus with 6 samples.

Results

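The genes examined here encode the urokinase receptor and 6 other proteins of plasminogen activation and the start of coagulation: Plaur, Plau, Plat, Serpinb2, Plgrkt, F10 and F3. They were chosen by name, with their fold changes after smoke exposure already known, and all 7 were found among the 19386 genes of the authors' deposited table. RNA had been sequenced from 6 cultures of macrophages grown from the bone marrow of wild-type C57BL/6 mice, with 3 cultures for exposure of the animals to cigarette smoke and 3 for room air. In both groups erythrocyte-depleted marrow cells were cultured in medium with 10% supernatant of L929 cells, a fibroblast line that supplies macrophage growth factor, and harvested on day 11. The age and sex of the mice and the dose and duration of exposure are not given in the sources used here, nor is it stated that each library came from a separate mouse, so the spread between libraries, and p-values that rest on it, may be technical.

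Plasminogen circulates as an inactive precursor and is cut to plasmin, a protease that dissolves fibrin and degrades matrix. The cut is made by urokinase (Plau) or by tissue plasminogen activator (Plat), urokinase works on the cell surface while bound to its receptor (Plaur), and plasminogen is held there by receptors such as Plgrkt. Serpinb2, or plasminogen activator inhibitor 2, blocks both activators. Tissue factor (F3) opens the coagulation cascade, in which factor X (F10) is activated to form thrombin and then fibrin. Macrophages make the urokinase receptor and urokinase and use them when they migrate, and activated monocytes and macrophages can make tissue factor and Serpinb2.

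After smoke exposure the mRNAs of the urokinase receptor, tissue factor and factor X were higher and passed an adjusted p under 0.05 by the authors' deposited table. Urokinase mRNA was 2.03 times as high in the group means but missed the threshold in the authors' deposited table (adjusted p 0.0538). Those of Plat, Serpinb2 and Plgrkt did not pass. Of the 12082 genes with an adjusted p in the authors' deposited table, 7.69% passed in either direction, 4.15% as higher and 3.53% as lower. The count of 3 of 7 members, all higher, stands beside these shares as a description, since the members were chosen on this comparison. The median log2 fold change was 1.03 over the 7 members and -0.0029 over all genes tested in the authors' deposited table.

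Expression was available only as the mean of each group, in normalized counts, which are read counts divided by a size factor for library depth. Levels of single libraries were not used for expression, so neither the spread between libraries nor the part of 1 library in a mean can be shown. The depth of the libraries is unknown, and the standard errors in the authors' deposited table come from a fit to 24 libraries, of which 18 are not analysed here. Inclusion levels of splicing events were available per library, and of 10376 events 4169 had no value in cigarette smoke replicate 1 against 1 to 398 in the other libraries.

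The cells were checked against markers. All 10 macrophage markers had means of at least 348 normalized counts in both groups and none was called in either direction. B cell and dendritic markers were near 0, as were the neutrophil markers other than Mmp8 (14.3 in room air and 20.5 after smoke). The neutrophil, B cell and dendritic lists had 14.6, 6.68 and 0.889 normalized counts summed over each list in room air and 20.98, 4.14 and 1.11 after smoke. In the T cell, mast cell, platelet and endothelial lists 1 gene each reached 10 normalized counts (Cd4 at 28.97, Kit at 54.5, Pf4 at 37.9 and Kdr at 260.2 in room air), none was called, and the erythroid markers are not analysed here. All 6 stromal markers were listed, with 43.6 normalized counts summed in room air, 2 of them collagen genes at 15.3 (Col1a1) and 22.5 (Col1a2), and 9.48 after smoke. Stromal cells can also express several of the genes described here (Plat and F3 among them). None of the stromal markers was called, and the part of such cells in the results was not tested. In bulk samples, fewer cells of a type and less RNA per cell cannot be told apart.

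Plaur, the gene of the urokinase receptor (ENSMUSG00000046223.10, chromosome 7, 24462484 to 24475968, plus strand, GRCm38, annotation GENCODE M21), averaged 75.0 normalized counts under room air and 272.4 under smoke, by the authors' deposited table. The smoke mean was 3.63 times the room air mean. On the log2 scale the authors' deposited table gave a difference of 1.88 (SE 0.28, 95% interval 1.33 to 2.44), at an adjusted p of 1.34e-07 by DESeq2. Its p-value ranked 3 among all genes with one, from the lowest. Its log2 fold change was less extreme, ranking 103 from the highest, with sign kept, among the 12082 genes tested. The receptor is anchored to the membrane by a lipid and has no intracellular part of its own, so it signals through partners such as integrins, which are described further on.

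Plau (ENSMUSG00000021822.3, chromosome 14, 20836660 to 20843385, plus strand), the gene of the receptor's ligand urokinase, averaged 266.6 normalized counts under room air and 541.9 under smoke, by the authors' deposited table. Its log2 fold change there was 1.03 (SE 0.36, 95% interval 0.32 to 1.73), and the adjusted p of 0.0538 missed the threshold. Because the interval is not adjusted for the number of genes, it lies above 0 although the gene was not called. The adjusted p was 0.0439 over genes with a 24-library mean of at least 50 normalized counts, 0.0847 over all genes with a p-value, and 0.184 once the trend described further on (GC content and transcript length) was taken out, so only the first of these alternatives called the gene.

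**Figure D1:**
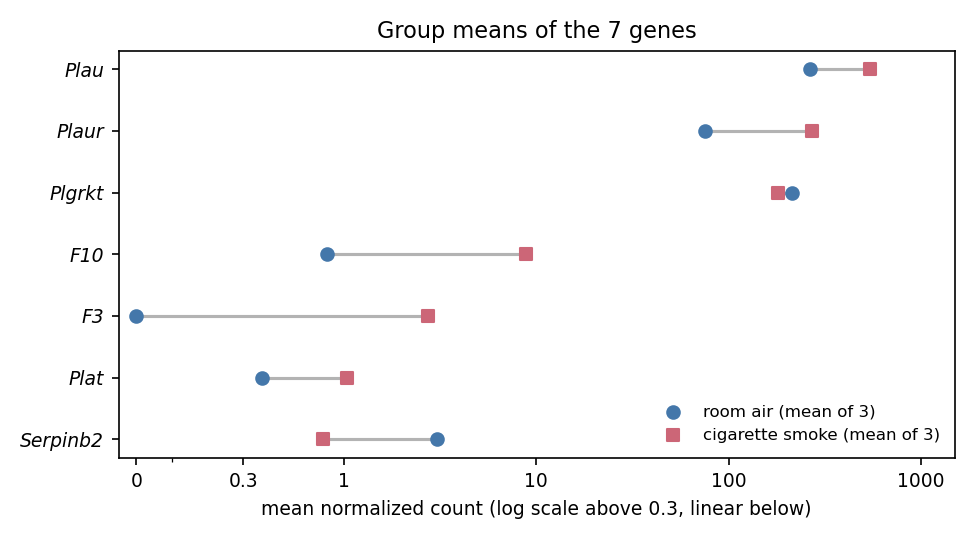
Mean normalized count of each gene in room air (blue circles) and cigarette smoke (red squares), each the authors' mean of 3 libraries, with no error bars because values per library were not used; the axis is logarithmic above 0.3 and linear below. Plau, Plaur and Plgrkt lie between 75.0 and 541.9, and the other 4 genes lie under 10, F3 at 0 in room air.

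F3 and F10, the coagulation genes, were at or near 0 in room air. F3 (ENSMUSG00000028128.13, chromosome 3, 121723537 to 121735048, plus strand) was listed at 0 in room air and averaged 2.75 normalized counts under smoke, by the authors' deposited table, which is a sum of 8.24 over 3 libraries. No fold is given against the group at 0. The fitted log2 fold change of 5.49 (SE 1.34, adjusted p 0.00265, DESeq2) in the authors' deposited table depends on how the fit treats zeros and is no bound. The table listed 485 genes at 0 in room air and above 0 after smoke, of which 14 carried an adjusted p and 3 passed, F3 among them. Of the normalized counts over all 24 libraries of the fit, the 6 described here held 1.45% for F3 and 2.18% for F10. That these genes carried an adjusted p may rest on the 18 libraries not analysed here, so the counts are a description.

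F10 (ENSMUSG00000031444.16, chromosome 8, 13037308 to 13056676, plus strand) averaged 0.818 normalized counts under room air and 8.82 under smoke, by the authors' deposited table. These are sums of 2.45 and 26.4 normalized counts over 3 libraries each. The log2 fold change there was 3.58 (SE 0.91, 95% interval 1.79 to 5.36), at an adjusted p of 0.00452 by DESeq2. With a pseudocount of 5 added to both means the log2 ratio was 1.25 for F10 and 0.63 for F3, so the size of both changes depends on how such low means are treated. Whether those reads came from 1 smoke library or from all 3 cannot be seen in group means.

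The other activator, the inhibitor and the plasminogen receptor were not called. Plat (ENSMUSG00000031538.6, chromosome 8, 22757727 to 22782844, plus strand) averaged 0.374 normalized counts under room air and 1.04 under smoke, by the authors' deposited table. Its log2 fold change of 0.98 (SE 1.18) had a 95% interval from -1.34 to 3.30, wide enough to hold a change in either direction. Serpinb2 (ENSMUSG00000062345.10, chromosome 1, 107511423 to 107535478, plus strand) averaged 3.06 and 0.780 normalized counts, and the authors' deposited table put the difference at -1.53 on the log2 scale (SE 1.32, 95% interval -4.11 to 1.06, adjusted p 0.536, DESeq2). It overlaps Serpinb10 on its strand in the annotation, so its reads are uncertain. Neither Plat nor Serpinb2 was called, and both intervals are wide.

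Plgrkt, a membrane protein that binds plasminogen through its C-terminal lysine (ENSMUSG00000016495.12, chromosome 19, 29348599 to 29367390, minus strand), was well measured. Its means were 212.7 normalized counts under room air and 179.8 under smoke, by the authors' deposited table. Its log2 fold change was -0.21 (SE 0.21), and the 95% interval from -0.63 to 0.21 did not reach the 95% interval of Plaur. Because the 2 genes were measured in the same libraries and chosen for their values, that comparison is a description.

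**Figure D2:**
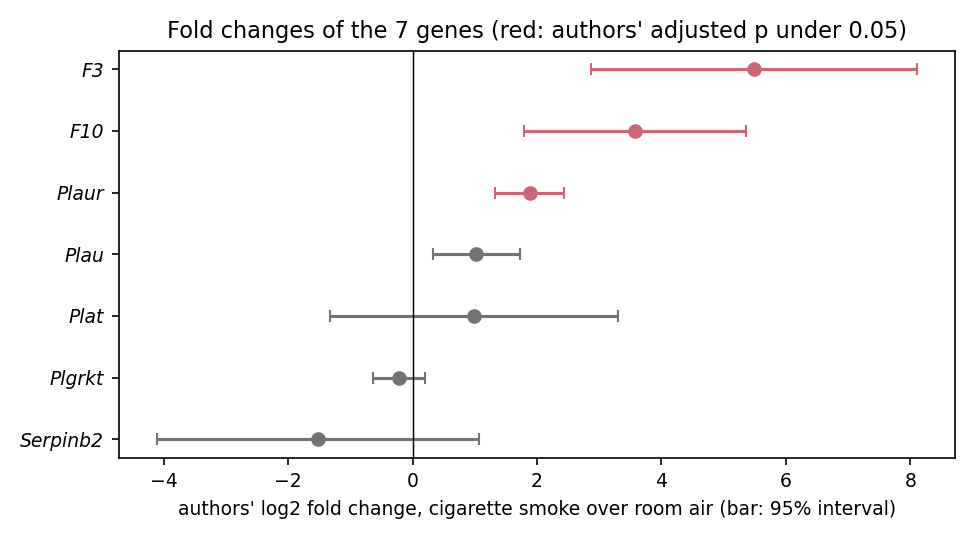
Log2 fold change of cigarette smoke over room air for each gene in the authors' deposited table (points) with its 95% interval (bars), red where the adjusted p was under 0.05. The interval of Plaur runs from 1.33 to 2.44, those of F10 and F3 are wider and lie above 0, and those of Plat, Plgrkt and Serpinb2 cross 0.

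Levels were compared between genes per kilobase of the longest protein-coding transcript. In room air the order of mean levels was Plgrkt (208.6 normalized counts per kilobase), Plau (113.8), Plaur (49.8), Serpinb2 (1.53), F10 (0.327), Plat (0.148) and F3 (0). After smoke it was Plau (231.4), Plaur (180.9), Plgrkt (176.3), F10 (3.52), F3 (1.47), Plat (0.411) and Serpinb2 (0.391). Plaur stood well below Plgrkt in room air and slightly above it after smoke. Without values per library it cannot be said which neighbours in these orders differ beyond their spread.

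**Figure D3:**
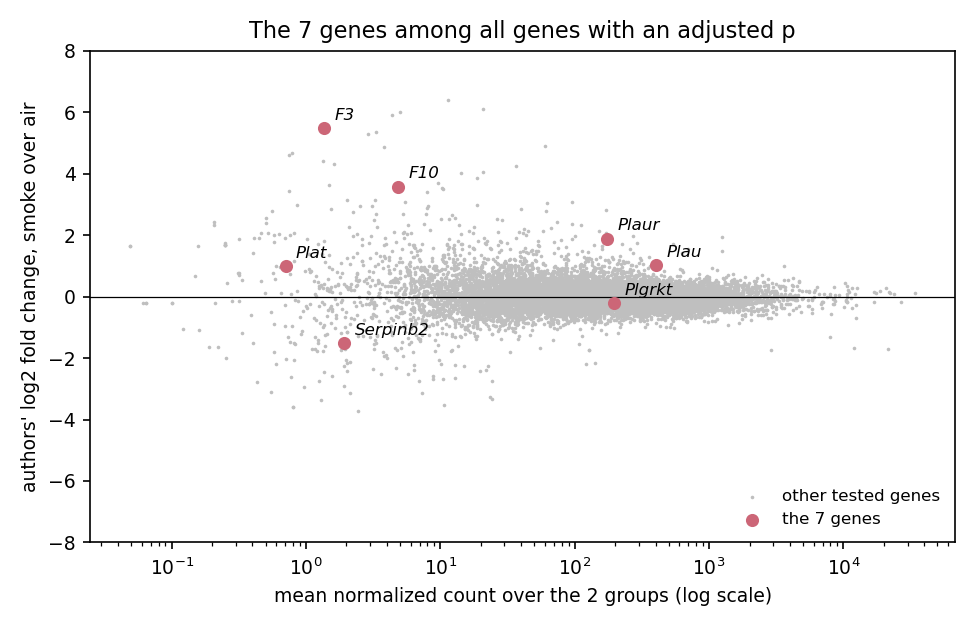
The authors' log2 fold change against the mean normalized count over both groups (log scale) for all genes with an adjusted p (grey) and the 7 genes (red). Plaur lies at 1.88, Plau, which was not called, at 1.03 and Plgrkt at -0.21, and F3, F10, Plat and Serpinb2 lie at means under 5, where fold changes scatter widely.

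The sequences just upstream of the genes were read to show what the promoters of the genes that rose hold, beside the promoter of Serpinb2, which did not pass. The RefSeq table (GRCm38.p6) had an entry for 5 of the 7 genes and none for Plau and Plat. The 250 bases before the gene start are printed 5′ to 3′ on the gene's strand, with matches to the AP-1 motif TGANTCA in capitals. AP-1 is a family of stress-induced transcription factors. The stretches are chr7:24462233-24462482 for Plaur, chr3:121723287-121723536 for F3, chr8:13037058-13037307 for F10 and, for the first of 2 entries of Serpinb2, chr1:107511173-107511422, all on the plus strand.
Plaur: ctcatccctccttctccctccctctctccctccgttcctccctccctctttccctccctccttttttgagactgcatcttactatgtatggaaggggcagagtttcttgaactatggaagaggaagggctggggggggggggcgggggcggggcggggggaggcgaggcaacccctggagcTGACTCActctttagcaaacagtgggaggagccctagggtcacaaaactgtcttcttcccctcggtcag
F3: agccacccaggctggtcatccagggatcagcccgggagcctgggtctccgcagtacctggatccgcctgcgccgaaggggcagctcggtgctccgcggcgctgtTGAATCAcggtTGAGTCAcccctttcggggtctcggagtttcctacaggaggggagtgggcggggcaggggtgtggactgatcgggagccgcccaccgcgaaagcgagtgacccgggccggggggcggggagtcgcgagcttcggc
F10: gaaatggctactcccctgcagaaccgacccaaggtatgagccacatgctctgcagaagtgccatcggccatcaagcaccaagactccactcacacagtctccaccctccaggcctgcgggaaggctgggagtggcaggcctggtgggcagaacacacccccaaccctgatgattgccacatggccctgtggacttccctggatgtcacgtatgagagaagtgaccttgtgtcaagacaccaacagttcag
Serpinb2: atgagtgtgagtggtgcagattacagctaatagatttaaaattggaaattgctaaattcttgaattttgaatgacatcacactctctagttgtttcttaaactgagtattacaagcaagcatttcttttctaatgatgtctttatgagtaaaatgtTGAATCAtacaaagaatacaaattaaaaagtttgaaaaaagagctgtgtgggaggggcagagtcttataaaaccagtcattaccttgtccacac

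The AP-1 motif, which reads the same way on both strands, was found once in Plaur, starting 69 bases before the gene start, at 2 places in F3 (146 and 135 bases) and once in Serpinb2 (94 bases), and not in F10 or Plgrkt. Of 32851 promoters of this length, 6.75% held it. The GC box GGGCGG, searched on both strands, matched at 3 places in Plaur, 3 in F3 and 2 in Plgrkt, and in 32.7% of all promoters. The PU.1 core GAGGAA, a motif of a myeloid transcription factor, matched at 2 places in Plaur, in none of the other 4 genes and in 23.3% of all promoters. The aryl hydrocarbon receptor core GCGTG, which that sensor of smoke components binds, matched at 3 places in Plgrkt and in none of the others, against 28.2% of all promoters. The window read for Plgrkt, chr19:29361872-29362121 on the minus strand, precedes its RefSeq start and lies inside the GENCODE span given for the gene. Matches to the NF-kappaB consensus, to the antioxidant response element TGACNNNGC and to the cAMP response element TGACGTCA were found in none of the 5, and are held by 7.25%, 10.2% and 1.55% of all promoters. The TATA box TATAAA, searched on both strands, matched once in the printed promoter of Serpinb2, starting 29 bases before the gene start, in none of the other 4 genes and in 12.4% of all promoters. These matches describe letters in the window and are no evidence of binding.

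Splicing of the members gave values per library, which played no part in the choice of the genes. JuncBASE, a program that classifies splicing events from junction reads, listed 3 events within the 7 genes, 1 each in Plaur, Plau and Plgrkt. Levels were compared with limma on log2 odds of inclusion, fitted on all 10376 events. None of the 3 events passed an adjusted p of 0.05 or an unadjusted p of 0.05 in limma, against 0% and 10.8% of all events. Without cigarette smoke replicate 3, 1064 of 10242 events passed the adjusted and 2496 the unadjusted threshold, and those of Plaur and Plau were not among them. That fit needed only 1 value per group. Many of its events, that of Plgrkt among them, rest on cigarette smoke replicate 2 alone, so its counts are not like those of the main fit. In the authors' deposited table of the same levels, 1 of the 3, in Plgrkt, had an unadjusted p under 0.05, against 4.15% of all events.

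Plgrkt showed the one event whose groups did not overlap. It is a pair of adjacent coding exons, 131 and 110 bases long, kept or skipped together between 29349006 and 29358316 on chromosome 19. The sequence with both exons in capitals and 20 flanking bases on each side (GENCODE transcript Plgrkt-208), and the sequence that results when they are skipped (Plgrkt-209), are shown because the pair decides the reading frame.
Plgrkt with the pair: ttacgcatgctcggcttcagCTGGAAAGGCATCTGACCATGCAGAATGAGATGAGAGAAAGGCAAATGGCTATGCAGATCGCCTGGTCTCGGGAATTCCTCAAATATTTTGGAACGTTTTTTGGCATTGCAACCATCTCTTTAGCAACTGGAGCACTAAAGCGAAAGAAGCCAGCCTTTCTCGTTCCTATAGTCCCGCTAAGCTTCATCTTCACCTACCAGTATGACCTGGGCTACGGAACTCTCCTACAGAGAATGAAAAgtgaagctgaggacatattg
Plgrkt without the pair: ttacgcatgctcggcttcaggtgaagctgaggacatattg
The 2 exons sum to 241 bases, which leaves a remainder of 1 after division by 3. The annotated coding sequence has 147 codons with the pair and 46 without it.

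Under room air, replicates 1, 2 and 3 included the pair at 96.43%, 100% and 97.22%. Under smoke, replicate 2 included it at 92.31% and replicate 3 at 93.94%, and replicate 1 had no value. Every room air value lay above both smoke values. The means were 97.9% ± 1.88 (SD, n = 3) and 93.1% ± 1.15 (SD, n = 2), or -4.76 percentage points for smoke minus room air. As log2 odds this was -1.67 (SE 0.84), at an adjusted p of 0.513 by limma. Without room air replicate 2, the library at 100%, the log2 odds difference was -0.97. The authors' deposited table gave a p of 0.0394 and a corrected p of 0.672. Of all JuncBASE events, 22.8% had groups that did not overlap. The read counts behind these percentages were not used here, so their counting error is unknown.

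The events in Plaur and Plau were retention of the last intron of each gene. In Plaur this intron (chromosome 7, 24474357 to 24475238, 882 bases) lies between coding exons 6 and 7, and in Plau (chromosome 14, 20841095 to 20842273, 1179 bases) between coding exons 10 and 11. The spliced junctions read as follows, with the last 20 bases of the upstream exon in lower case and the first 20 of the downstream exon in capitals (GENCODE transcripts Plaur-201 and Plau-201), and mark the site whose skipping counts as retention.
Plaur: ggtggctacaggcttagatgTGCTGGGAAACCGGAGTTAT
Plau: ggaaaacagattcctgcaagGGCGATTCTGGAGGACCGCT

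In replicates 1, 2 and 3 the Plaur intron was retained at 0%, 8% and 0% under room air and at 0%, 0% and 2.62% under smoke. The means were 2.67% ± 4.62 (SD, n = 3) and 0.873% ± 1.51 (SD, n = 3), and limma gave an adjusted p of 0.851. A single room air library held the group's whole level, and without it the difference on the log2 odds scale changed from -0.47 to 0.63. The Plau intron was retained at 0%, 5.41% and 4.62% under room air and at 0%, 0% and 3.27% under smoke, with means of 3.34% ± 2.92 (SD, n = 3) and 1.09% ± 1.89 (SD, n = 3) and an adjusted p of 0.630 (limma). The groups overlapped in both introns. Over the whole JuncBASE set, 89.9% of 3305 retained introns had a lower mean after smoke. The median difference over all 3305 was -3.79 percentage points.

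**Figure D4:**
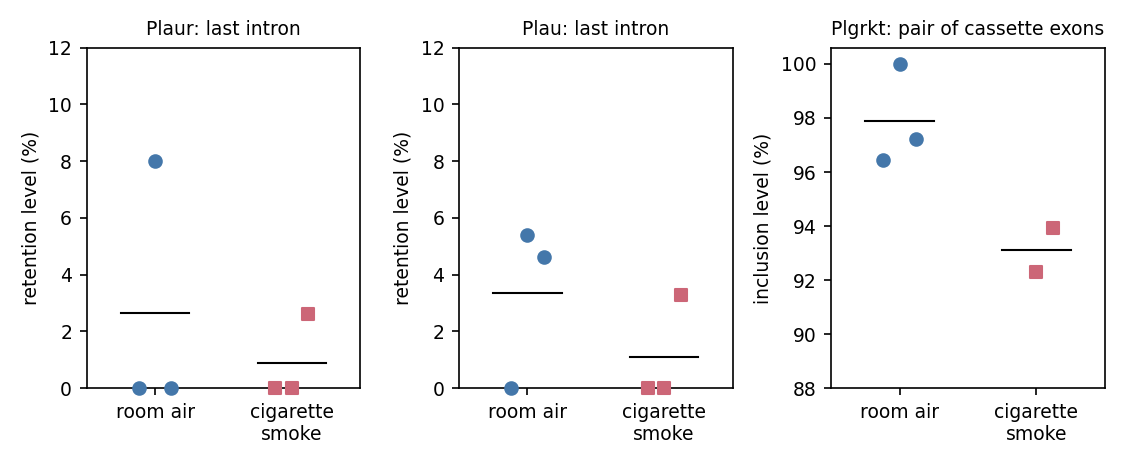
Retention level of the last intron of Plaur and of Plau and inclusion level of the cassette exon pair of Plgrkt, in percent, per library (room air blue circles, cigarette smoke red squares, replicates 1 to 3 from left to right, black line the mean; the third axis starts at 88%). The Plaur and Plau values overlap between groups, and the 2 Plgrkt values of smoke lie below the 3 of room air.

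The authors' rMATS table of retained introns held 2 entries within the genes, both in Plaur. They share a 3′ end on chromosome 7 at 24472572 and start at 24472055 and at 24472273, the second after an alternative donor site that extends the fourth coding exon by 218 bases. The transcript that uses it (Plaur-203) has 222 coding codons against 327 in Plaur-201 and is annotated as a target of nonsense-mediated decay. The 2 sample sets differed by 1.5 and 3.9 percentage points at false discovery rates of 1 in the authors' deposited table, which does not say which set is which group. Of all 3887 introns listed there, 14.5% fell below a rate of 0.05.

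A list of 58 other genes of plasminogen activation and coagulation was drawn up from what the genes do, with the series' main results known. Of these, 41 were in the authors' deposited table and 33 carried an adjusted p. At an adjusted p under 0.05, 2 were higher after smoke (Eno1 and Tgfb1), 2 were lower (Itgav and Igf2r) and 29 did not pass, beside 4.15% higher and 3.53% lower over all genes tested. With so few calls, nothing is read from the list's count. By the authors' deposited table, the 33 genes had a median log2 fold change of 0.03. The other 17 genes, plasminogen itself, vitronectin and the 3 fibrinogen chains among them, are not analysed here.

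In the list's group of plasminogen activator and protease inhibitors, 3 of those reported here carried an adjusted p and none passed, against 7.69% of all genes tested. With so few genes nothing is read from this. Serpine2 stood at 5.05 and 1.39, Serping1 at 0.618 and 0.899 and Thbs1 at 152.1 and 84.9 normalized counts in room air and smoke, by the authors' deposited table. Thbs1 overlaps a gene on the other strand.

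Among proteins that bind plasminogen at the cell surface, Eno1, a glycolytic enzyme also found there, rose from 1882 to 3066 normalized counts (log2 fold change 0.70, SE 0.18, adjusted p 0.00398, DESeq2), by the authors' deposited table. With the trend described further on (GC content and transcript length) taken out, its log2 fold change was 0.42 and the call was lost (adjusted p 0.286, from the authors' DESeq2 standard errors). A near-identical copy, Eno1b, makes its reads uncertain. Anxa2 and S100a10, which together form a plasminogen receptor, stood at 0.22 (SE 0.14) and 0.29 (SE 0.15) on the log2 fold scale and did not pass. Anxa2 overlaps other genes, so its reads are uncertain too.

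Of 12 listed receptor partners and uptake receptors, 2 were lower and none higher, against 3.53% and 4.15% of all genes tested. Itgav, the alpha V integrin subunit, went from 993.0 to 710.0 normalized counts (log2 fold change -0.49, SE 0.14, adjusted p 0.0163, DESeq2), by the authors' deposited table. Igf2r, which binds the urokinase receptor and carries ligands to lysosomes, went from 1490 to 1184 (log2 fold change -0.33, SE 0.10, adjusted p 0.0285, DESeq2), by the same deposited table of the authors. With that trend taken out they stood at -0.21 and -0.16, and neither was called (adjusted p 0.664 and 0.598, from the authors' DESeq2 standard errors). Both overlap genes on the other strand, and since the counting is not stated to use strand, their reads are uncertain. The beta 2 integrin chain Itgb2 and its partner Itgam, which pair with the urokinase receptor on leukocytes, stood at 0.13 (SE 0.13) and -0.08 (SE 0.20) on that scale and did not pass, and neither did Lrp1, the receptor that clears urokinase bound to its inhibitor, at -0.25 (SE 0.29). Itgam overlaps Gm49368 on its own strand and Lrp1 overlaps Gm16217 on the other, so their reads are likewise uncertain.

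Among substrates and effectors, Tgfb1, whose latent form plasmin can activate, rose from 1294 to 1767 normalized counts (log2 fold change 0.45, SE 0.12, adjusted p 0.00458, DESeq2), by the authors' deposited table, and without the trend the call was lost at 0.32 (adjusted p 0.168). Mmp12, the macrophage elastase, had means of 661.3 and 1856 (log2 fold change 1.49, SE 0.65, adjusted p 0.135, DESeq2). It was not called, and it overlaps Mmp1b on the other strand. Of the 13 listed coagulation genes, 8 carried an adjusted p and none passed, against 7.69% of all genes tested. Tfpi, the inhibitor of tissue factor, had means of 116.8 and 71.8 normalized counts (log2 fold change -0.69, SE 0.26, adjusted p 0.0696, DESeq2) by the authors' deposited table, opposite in sign to F3 but not called. The factor VII gene F7, whose product pairs with tissue factor, had means of 0.574 and 1.83 and carried no adjusted p.

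**Figure D5:**
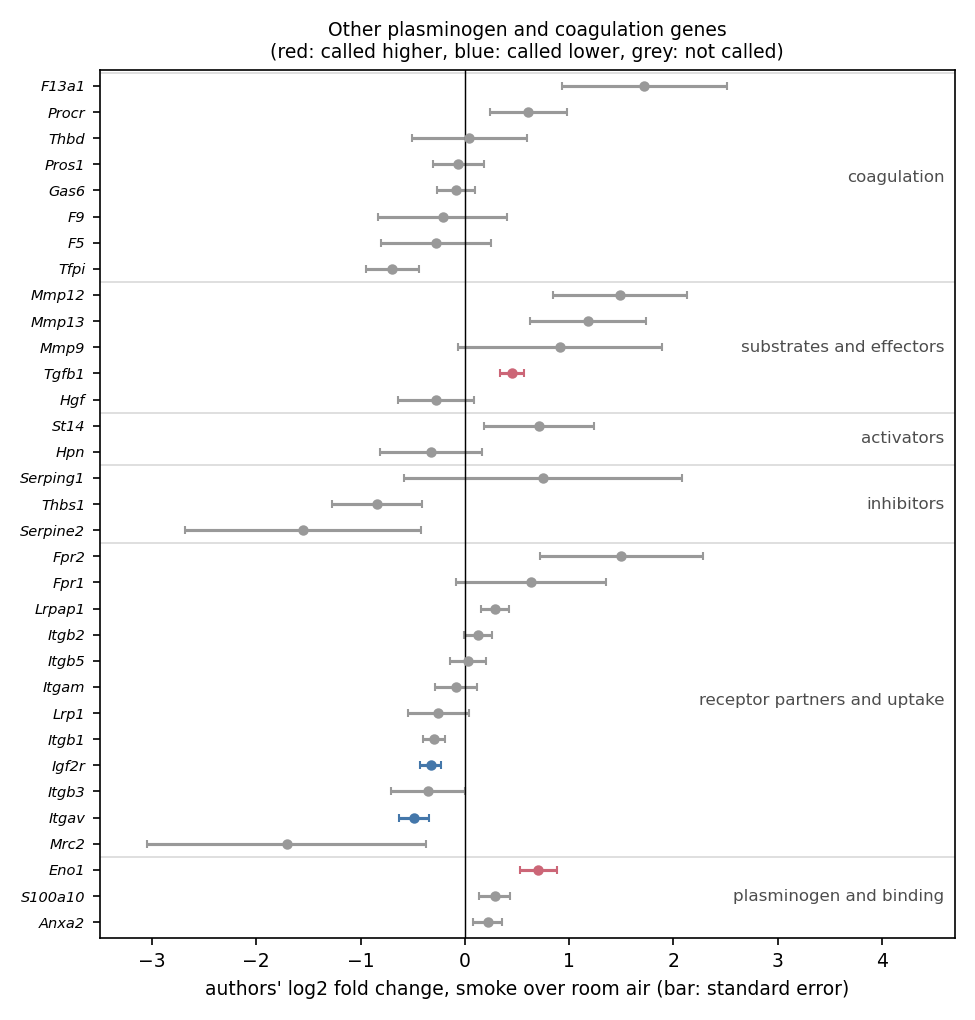
Log2 fold change of cigarette smoke over room air (points) with its standard error (bars) in the authors' deposited table for the 33 other plasminogen and coagulation genes with an adjusted p, grouped by role, red where called higher, blue where called lower and grey where not called. Eno1 and Tgfb1 are called at 0.70 and 0.45, and Itgav and Igf2r are called at -0.49 and -0.33.

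JuncBASE listed 11 events in 5 of the list genes, none with an adjusted or unadjusted p under 0.05 in limma, against 0% and 10.8% of all events. In the authors' deposited table rMATS listed 8 introns of these genes, none below a false discovery rate of 0.05, against 14.5% of all introns. Counts this small are near those shares, and nothing is read from them.

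The fold changes of all genes followed the GC content and length of their transcripts, and a smooth trend in both was taken out as a check. The trend expected for Plaur was 0.19 on the log2 scale, for F10 0.13 and for F3 0.06, so little of their fold changes lay in it. After its removal Plaur (adjusted p 1.6e-05), F3 (0.0108) and F10 (0.0216) still passed, recomputed from the standard errors in the authors' deposited table.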

How the data were processed

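RNA was sequenced in 6 libraries of bone marrow-derived macrophages, 3 per group, with a directional library kit per the labels' protocols. The submitters' processing notes name STAR, DESeq2, SAMtools 1.9 and bedtools 2.27.1 and the build mm10, without their roles, and the counting program is not given in the sources used here. Groups were taken from the sample titles. The members and gene lists were chosen with earlier results of these data known.

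The gene table deposited by the authors is named for DESeq2. Its signal values are, per the file headers, mean normalized counts of each group and of 24 libraries. The log2 fold changes, standard errors and Wald scores, and the p-values and adjusted p-values, are those of the authors' fit. The authors deposited percent inclusion levels per library from JuncBASE, with differences of medians, and a comparison of retained introns from rMATS, per the file headers, whose 6 columns of per-sample values were not used because the groups of its sample sets are not stated.

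Inclusion levels p were transformed to log2((p + 1)/(100 - p + 1)) and compared with limma 3.58.1 in R 4.3.3 over all events with at least 2 values per group, with Benjamini-Hochberg adjustment. Fits that left out 1 library took events with at least 1 value per group. 95% intervals are the deposited fold change and 1.96 standard errors on each side. The trend in GC content and length of the longest transcript was modelled with natural splines (4 degrees of freedom each) weighted by the inverse squared standard error (statsmodels 0.14.6, patsy 1.0.2) over 12071 genes. Both fits were tested on simulated data. Events were assigned by position within a gene on its strand, and all 7 members and the list genes past the threshold are named, with others where their role is described. The gene table held group means only, so the planned description of the authors' comparison took the place of a count test. Promoters came from RefSeq (GRCm38.p6), and gene IDs were matched to GENCODE M21 without their version, for 19365 of 19386 genes. One gene of the pathway list is not reported here.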

Additional observations from a re-analysis of the deposited data

How the results depend on the processing

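Among the 7 genes, 3 passed at an adjusted p under 0.01 (Plaur, F3 and F10), with no filter on low counts, and with the trend in GC content and length removed, and 4, with Plau added, at 0.1. Over genes with a 24-library mean of at least 50 normalized counts, 5 members were left and Plaur, F10 and Plau passed. F10 and Serpinb2, under 10 in both groups, met that minimum only through the 18 libraries not analysed here. The list of 58 genes gave 2 calls at 0.01 in place of 4, and 0 without the trend, where 5 of 33 had an unadjusted p under 0.05 by the authors' DESeq2 standard errors, against 11.1% of 12071 genes. Over all genes, 502 higher and 427 lower calls became 366 in all at 0.01, 1547 at 0.1 and 153 without the trend, of which 100 were higher and 53 lower. With no filter on low counts 688 of 19373 genes passed, and 963 of 9025 did so at a 24-library mean of at least 50. With pseudocounts of 0.5 and 5 the log2 ratio of the F3 means was 2.70 and 0.63. No JuncBASE event of the members passed in the alternatives run, 11 each for Plaur and Plau and 10 for Plgrkt, which lacks a value in 1 library, and leaving out 1 library gave 0 in each case. Over all events, limma called 0 of 10376 in the main fit, 1125 at an unadjusted p under 0.05, 5 on untransformed percentages, 23 over events with a value in all 6 libraries, and 0 to 1064 when 1 library was left out, the highest without cigarette smoke replicate 3. The Plaur intron difference ran from -1.10 to 0.63 log2 odds when 1 library was left out, the latter without room air replicate 2, that of Plau from -1.95 to -0.57 and that of Plgrkt from -2.09 to -0.97, the higher values again without that library. Where Plgrkt was left with a single smoke value, that library was assumed to vary like the others. The same was assumed for many other events without cigarette smoke replicate 3, so the 1064 calls may rest in part on replicate 2 alone. In rMATS, 565 calls became 302 at a false discovery rate under 0.01 and 172 with a difference of at least 10 percentage points, with 0 in Plaur each time. With the replicate number as a replicate block, limma called 0 events and the Plgrkt difference was -2.09 (adjusted p 0.609). Correlations of deviations were 0.0177, -0.0404 and -0.0888 between same-numbered libraries and -0.072 to 0.127 between the others. Whether same-numbered libraries are paired is not stated, and these correlations cannot decide it. Causes of these changes were not tested. Of 65 alternative values for single genes and events, 60 kept their direction and side of the threshold or stayed within 1 standard error. Depth per library is unknown, so no counting interval is given for F3, F10, Plat or Serpinb2.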

Other observations

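The authors' deposited table also gives a mean over the 24 libraries of the fit, of which the 6 described here would make up 25% if all were alike. The 6 libraries held 29.9% of the normalized counts of Plgrkt and 21.4% of those of Plau. They held 3.34% for Plaur, 2.18% for F10, 1.45% for F3, 0.448% for Plat and 0.386% for Serpinb2. The mean over the other 18 libraries, which are not analysed here, follows as 1677 normalized counts for Plaur, 495.2 for Plau, 165.2 for Serpinb2, 153.3 for Plgrkt, 72.2 for F10, 52.2 for Plat and 31.2 for F3. The means of Plaur in room air and in smoke, 75.0 and 272.4, thus both lie far below that of the other libraries, and those libraries also entered the standard errors.

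The transcript models that the authors merged with Cufflinks repeat many introns with 1 end moved by a base. For the 7 genes they held 41 models with 139 different introns. All 77 introns that GENCODE M21 gives for these genes were among them, and 55 of the others were an annotated intron that ends 1 base early, because the next exon begins a base too soon. Plaur had 6 such introns, all in 1 model, Plau 10, Plat 13, Serpinb2 8, Plgrkt 8, F10 10 and F3 0. Over the whole set of models 107767 of 389551 introns (27.7%) ended 1 base early, 28 ended 1 base late and 2 started 1 base early. Neither the JuncBASE events nor the rMATS introns of the 7 genes used such a moved end. Whether it affects other events was not tested.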
